A study of Homo sapiens with 17 samples.

Results

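The genes described here are 8 components of the pathway that detects DNA in the cytosol: CGAS, IFI16, STING1, TBK1, IRF3, TREX1, SAMHD1 and ENPP1. They were chosen by name, for their place in the pathway, from 62754 genes in each count table, with earlier results of these data known. All 8 had enough counts to be tested among 19473 genes. Transcripts were measured by strand-specific sequencing of poly(A) RNA from IMR90 ER:RAS cells, a line of human lung fibroblasts infected with the retroviral vector pLNC ER:RAS-neo. The vector encodes RAS with the G12V substitution fused to an oestrogen receptor domain, so every library, controls included, carries the construct, and 4-hydroxytamoxifen (4OHT) switches it on and drives the cells into senescence. DMSO is the solvent control. Cells were reverse transfected with a non-targeting siRNA (siNT) or with an siRNA against SMARCA4 (siSMARCA4) before 4OHT or DMSO was added, and RNA was taken at day 7. SMARCA4 (BRG1) is the motor subunit of SWI/SNF, a complex that moves nucleosomes. There were 5 libraries of DMSO with siNT, 6 of 4OHT with siNT and 6 of 4OHT with siSMARCA4, while DMSO with siSMARCA4 was not analysed here. The labels further number each siRNA 2 or 4 and close with V or VM. They do not say what V and VM mean, nor whether 2 and 4 are different siRNA sequences or different experiments. Nor do they say that the libraries came from separate cultures. The p-values thus measure the spread between these libraries, which may in part be technical.

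In this pathway cGAS, the product of CGAS, binds double-stranded DNA in the cytosol and makes the cyclic dinucleotide cGAMP. STING, the product of STING1, binds cGAMP on the endoplasmic reticulum, moves to the Golgi and recruits the kinase TBK1, which phosphorylates the transcription factor IRF3 to induce interferon and chemokine genes. Other proteins set the supply of ligand: TREX1 and SAMHD1 remove or limit DNA, and ENPP1 hydrolyses cGAMP outside the cell. In senescent fibroblasts DNA leaks from the nucleus, and this pathway is a known driver of their secretory response. The values below are transcript levels, which carry no information on whether the proteins were active.

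Libraries held 39.1 to 68.98 M counts (M, 1e6), and a count per 1e6 counts, scaled between libraries by TMM, is written as CPM. The target of the knockdown, SMARCA4, was at 252 to 285 CPM in 4OHT siNT and at 68.4 to 126 CPM in 4OHT siSMARCA4, without overlap (log2 fold change -1.61, SE 0.13, edgeR adjusted p 5.13e-07). SMARCA2, which encodes the alternative ATPase of the same complex, was also lower in siSMARCA4 (20.7 ± 1.79 against 29.8 ± 2.60 CPM as mean ± SD, both n = 6; log2 difference -0.53, SE 0.10, edgeR adjusted p 0.000847). All 9 fibroblast markers checked were above 1 CPM, whereas no leukocyte or epithelial marker reached 1 CPM as a group mean and the keratins KRT5 and KRT14 were at 0 in every library. Summed levels ran from 0.119 to 0.497 CPM for 6 leukocyte markers, from 0.158 to 1.29 CPM for 4 epithelial markers and from 0.798 to 5.54 CPM for 3 endothelial markers, the last highest in 4OHT siNT. The summed level of the 9 fibroblast markers moved with the groups: it was 22908 to 27524 CPM in DMSO siNT, 13453 to 17542 in 4OHT siNT and 7560 to 10891 in 4OHT siSMARCA4, and 7 of the 9, led by the collagen genes and without VIM and FAP, were called lower by edgeR in the knockdown, against 13.8% of all genes. In bulk RNA, fewer cells of a kind and less RNA per cell cannot be told apart, and the part of this shift in the results below was not tested.

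With SMARCA4 knocked down in senescent cells, 3 of the 8 genes changed: CGAS and TBK1 rose and STING1 fell. That share, 37.5%, stood beside 24.2% of all genes called in the same comparison (10.4% higher, 13.8% lower), a call being an edgeR adjusted p under 0.05. The libraries of the groups did not overlap for 2 of the 8, CGAS and TBK1, against 12.0% of all genes. During senescence itself, with siNT, CGAS and ENPP1 fell while IFI16 and IRF3 rose. Those 4 calls of 8 compare with 54.4% of all genes (27.0% higher and 27.4% lower), and 4 of 8 genes (CGAS, TREX1, IRF3 and ENPP1) did not overlap, against 39.6%. Against DMSO siNT, the siSMARCA4 cells had 4 of 8 called, STING1, TREX1 and ENPP1 lower and TBK1 higher, where 55.1% of all genes were called, and 3 of the 8 (TREX1, TBK1 and ENPP1) did not overlap, 37.5% against 36.3% of all genes. The median log2 fold change of the 8 genes was -0.16 in the knockdown and 0.04 in senescence, and over all genes these medians were -0.02 and 0.00. The 3 comparisons share libraries, so their values are set side by side below and are not independent of each other.

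**Figure D1:**
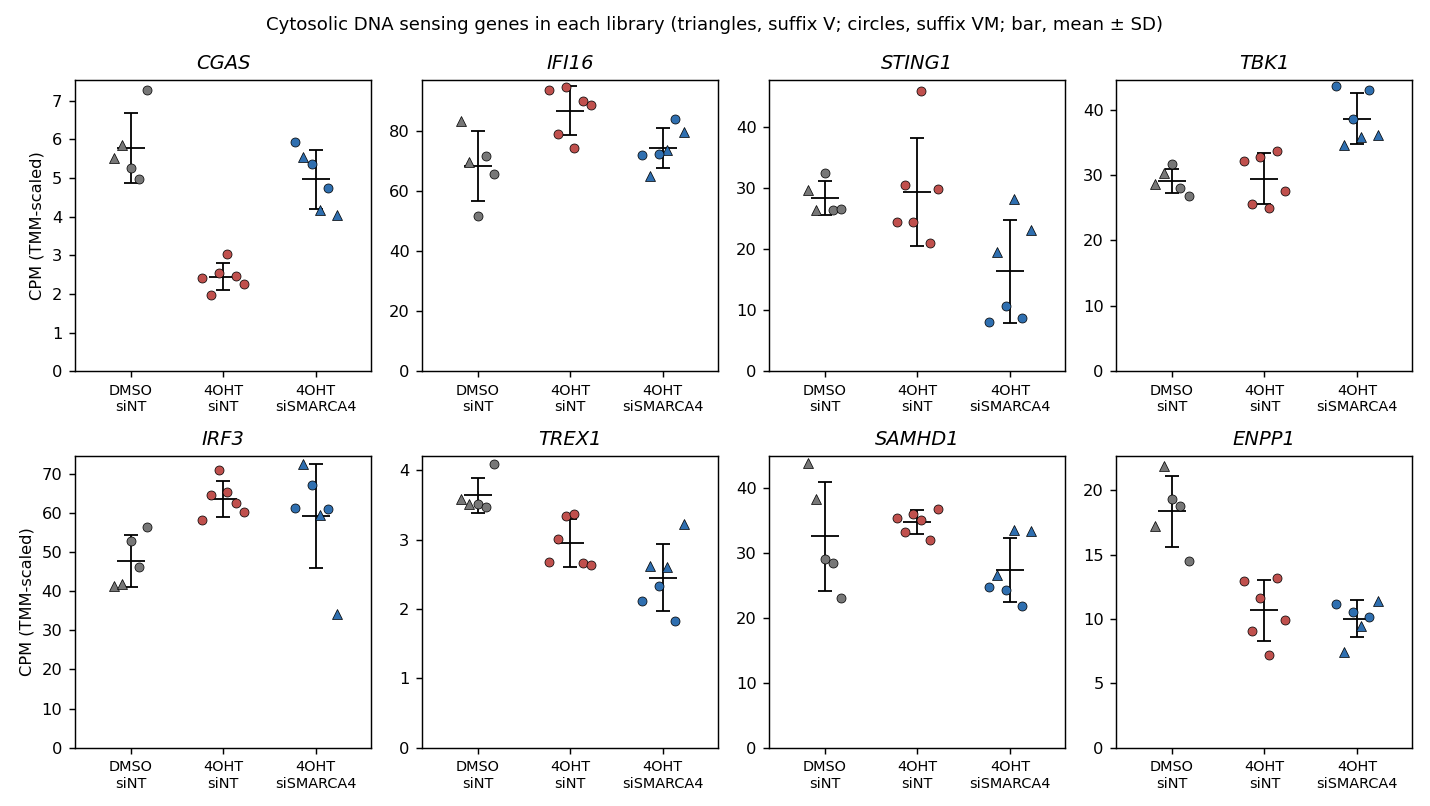
Level of each of the 8 genes in every library, as TMM-scaled CPM on axes that start at 0, in 5 DMSO siNT, 6 4OHT siNT and 6 4OHT siSMARCA4 libraries; triangles are libraries with the suffix V, circles VM, and bars the mean ± SD. CGAS is low in all 6 4OHT siNT libraries (1.98 to 3.03 CPM), and STING1 falls into separate V and VM levels with siSMARCA4.

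Per kilobase of exon in GENCODE 44, the 8 genes spanned a wide range of levels in 4OHT siNT. The length merges every annotated exon of a gene, whichever isoforms the cells used, and came to 14716 bases for TBK1 and 1448 for TREX1. The order per kb thus depends on the annotation. Before division by length, TBK1 (29.5 CPM) stood above TREX1 (2.95 CPM) in this group. IRF3 (16.8 ± 1.20 CPM per kb) and IFI16 (16.4 ± 1.55) stood highest and did not differ beyond their spread. STING1 followed at 6.11 ± 1.84 and SAMHD1 at 3.21 ± 0.166. On this scale TREX1 (2.04 ± 0.238) and TBK1 (2.00 ± 0.262) were alike within their spread, and ENPP1 (0.934 ± 0.206) and CGAS (0.587 ± 0.0834; SD, n = 6 each) were lowest. The sensor that starts the pathway thus had the lowest group mean of the 8 transcripts in 4OHT siNT, although in library 4-2VM CGAS (0.726) lay above ENPP1 (0.633). Of the neighbours in DMSO siNT, IFI16 and IRF3 again differed by less than the larger SD of the pair. So did SAMHD1 (3.01 ± 0.774) and TREX1 (2.51 ± 0.178), and ENPP1 (1.61 ± 0.239) and CGAS (1.39 ± 0.215; SD, n = 5). With siSMARCA4, the group mean per kb of CGAS stood above that of ENPP1 (1.19 ± 0.184 against 0.878 ± 0.126, n = 6), although in library 4-3V CGAS (0.972) lay below ENPP1 (1.001).

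CGAS (ENSG00000164430; GRCh38 chr6:73413515-73452297, minus strand) encodes the sensor enzyme. Its levels in DMSO siNT were 5.53 (2-1V), 5.85 (2-2V), 5.27 (2-2VM), 4.97 (4-2VM) and 7.28 CPM (4-3VM). In 4OHT siNT they ran from 1.98 to 3.03 CPM with a median of 2.44, and in 4OHT siSMARCA4 from 4.06 to 5.93 CPM with a median of 5.05. Every 4OHT siNT library therefore lay below every library of both other groups, which overlapped each other. CGAS fell 2.36-fold in senescence (5.78 ± 0.898 to 2.45 ± 0.348 CPM, SD, n = 5 and 6; log2 fold change -1.24, SE 0.14, edgeR adjusted p 3.38e-07). It was 2.03-fold higher with siSMARCA4 than with siNT in 4OHT (4.97 ± 0.768 CPM, n = 6; 1.02, SE 0.13, edgeR adjusted p 4.81e-05). Between siSMARCA4 in 4OHT and DMSO siNT the difference was not past the threshold (-0.22, 95% interval -0.48 to 0.04, edgeR adjusted p 0.179). Both calls held under all alternatives run, with the knockdown change between 0.87 and 1.22 and the senescence change between -1.38 and -1.14. The depth behind these values was 90 to 167 counts per 4OHT siNT library. Of the CGAS exon bases, 4.31% are shared with DDX43 on the opposite strand.

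IFI16 (ENSG00000163565; chr1:158999968-159055155, plus strand) encodes a DNA-binding protein of the nucleus and cytosol that works beside cGAS. The DMSO siNT libraries were at 83.4, 69.5, 51.6, 71.8 and 65.5 CPM (in the order 2-1V, 2-2V, 2-2VM, 4-2VM and 4-3VM). In 4OHT siNT the range was 74.4 to 94.7 CPM (median 89.3), and in 4OHT siSMARCA4 it was 64.9 to 83.9 CPM (median 73.0). All 3 groups overlapped. IFI16 rose 1.27-fold in senescence (68.4 ± 11.5 to 86.7 ± 8.19 CPM; 0.34, SE 0.10, edgeR adjusted p 0.00839), a change of opposite sign to that of CGAS. The call was lost with the siRNA number 4 libraries alone (0.19, edgeR adjusted p 0.264). With siSMARCA4 the value was -0.22 (95% interval -0.41 to -0.03, edgeR adjusted p 0.109).

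STING1 (ENSG00000184584; chr5:139475533-139482935, minus strand) encodes the receptor of cGAMP. In DMSO siNT it was at 29.7, 26.3, 32.5, 26.4 and 26.6 CPM in the same order. The 4OHT siNT libraries spread from 20.9 (2-3VM) to 45.8 CPM (4-2VM), with a median of 27.2. With siSMARCA4 the libraries were at 8.04 (2-1VM), 10.7 (2-3VM), 8.71 (4-2VM), 19.6 (2-3V), 28.2 (4-2V) and 23.0 CPM (4-3V). The siSMARCA4 libraries thus split by the suffix of their labels: the 3 VM libraries lay below every other library of the study, and the 3 V libraries lay within or near the range of 4OHT siNT. Over the whole groups STING1 fell 1.79-fold with siSMARCA4 (29.3 ± 8.84 to 16.4 ± 8.43 CPM, both n = 6; log2 difference -0.84, SE 0.27, edgeR adjusted p 0.0298). Against DMSO siNT (28.3 ± 2.75 CPM) siSMARCA4 was also lower (-0.79, SE 0.28, edgeR adjusted p 0.0227), and senescence with siNT gave no call (0.05, 95% interval -0.49 to 0.60, edgeR adjusted p 0.891). The knockdown call was kept in 15 of 22 alternatives, reaching -1.66 in the VM libraries alone (edgeR adjusted p 0.000118) and -1.60 with the replicate block (edgeR adjusted p 0.00688). Each V tag occurs in a single library, so the block fit takes its value from VM libraries as well, and the V libraries drop out of it. The value against DMSO siNT was -1.65 in the VM libraries alone (edgeR adjusted p 6.34e-05). The knockdown call was lost without siNT 4-1VM (edgeR adjusted p 0.0514) or 4-2VM (0.0843) and without siSMARCA4 2-1VM (0.0633), 2-3VM (0.0702) or 4-2VM (0.0659). It was also lost in a fit of the groups compared alone (0.0511) and with the number 4 libraries alone (-0.79, edgeR adjusted p 0.182). The call against DMSO siNT was lost with the number 4 libraries alone (-0.42, edgeR adjusted p 0.401) and without siSMARCA4 2-3VM (0.0521) or 4-2VM (0.0503).

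The split by suffix was then examined in a fit with 1 term per group and suffix, which was added after these values had been seen. Within siSMARCA4, STING1 was 2.58-fold higher in V than in VM libraries (23.6 ± 4.36 against 9.16 ± 1.39 CPM, both n = 3; log2 difference 1.37, SE 0.23, edgeR adjusted p 0.00399), and 3.70% of all genes were called between these suffixes. Under 9 alternatives, among them leaving out each library in turn, the difference stayed between 1.22 and 1.50 and was called in all 9. It was the only one of the 8 genes called between the suffixes there, and 4 of the 8 did not overlap (STING1, SAMHD1 and TREX1 higher in V, TBK1 lower), against 22.3% of all genes. Within DMSO siNT the V and VM libraries were at 28.0 ± 2.39 (n = 2) and 28.5 ± 3.48 CPM (n = 3), a difference of -0.03 (edgeR adjusted p 0.977; 0.765% of all genes called). The DMSO V libraries were 2-1V and 2-2V, and the number 4 libraries 4-2VM and 4-3VM were VM. Suffix differences within DMSO siNT are thus mixed with siRNA number for every gene. The test of whether the suffix difference itself differed between siSMARCA4 and DMSO gave 1.39 (SE 0.34, edgeR adjusted p 0.0576), which missed the threshold that 1.27% of all genes passed. SMARCA4 also split by suffix within siSMARCA4, at 71.9 ± 5.53 CPM in VM and 104 ± 21.9 CPM in V libraries (0.54, SE 0.12, edgeR adjusted p 0.0201). The libraries with less SMARCA4 were thus those with less STING1, and whether the depth of the knockdown or the suffix goes with STING1 cannot be told apart.

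All 4OHT siNT libraries carried the suffix VM, so the comparison within a suffix could be made for VM alone. There STING1 fell 3.20-fold with siSMARCA4 (-1.68, SE 0.21, edgeR adjusted p 2.98e-05; n = 3 against 6, no overlap). SAMHD1 (-0.56, SE 0.10, edgeR adjusted p 0.000484) and TREX1 (-0.50, SE 0.14, edgeR adjusted p 0.014) fell too, and CGAS (1.12, SE 0.15, edgeR adjusted p 5.91e-05) and TBK1 (0.50, SE 0.10, edgeR adjusted p 0.00126) rose. These 5 of 8 genes were called where 27.4% of all genes were, and these 5 of 8 did not overlap between groups, against 33.5% of all genes. When the V libraries of siSMARCA4 were set against the same 4OHT siNT libraries, CGAS alone was called (0.90, SE 0.15, edgeR adjusted p 0.0016), with 12.1% of all genes. In that comparison STING1 gave -0.31 (SE 0.20, edgeR adjusted p 0.32) and TBK1 0.27 (SE 0.10, edgeR adjusted p 0.0866), and 2 of the 8, CGAS and TBK1, did not overlap, against 17.1% of all genes. The rise of CGAS was thus called with either set of siSMARCA4 libraries, and the fall of STING1 with the VM set. Suffix and siRNA are confounded in the V comparison, since it has no V library with siNT in 4OHT.

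**Figure D2:**
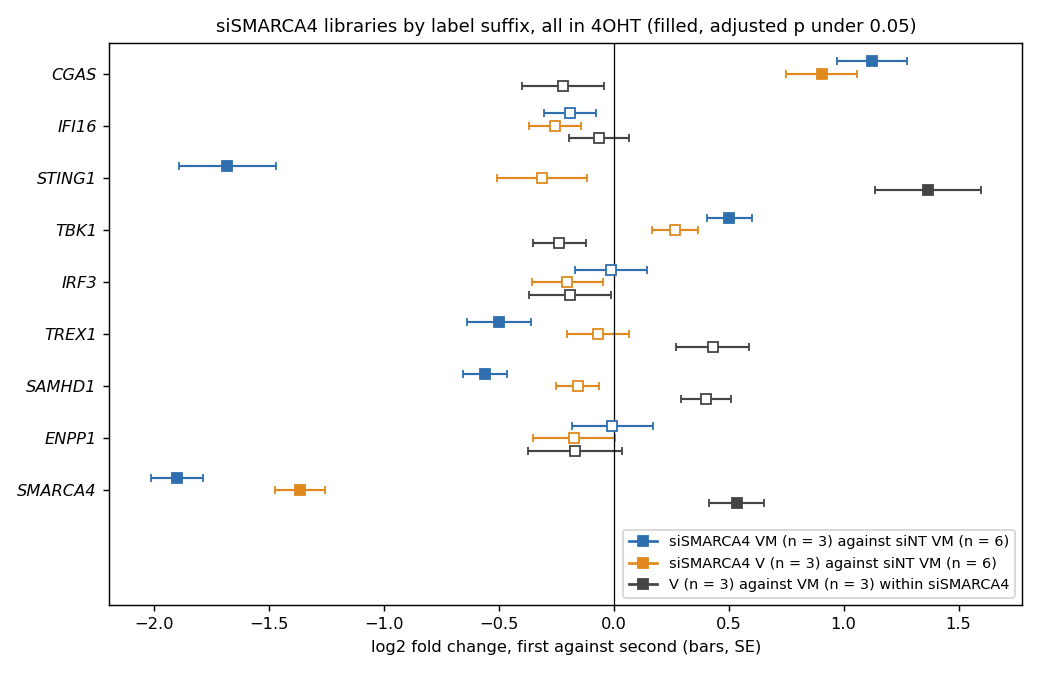
Log2 fold change (points) with SE (bars) for the 8 genes and SMARCA4: siSMARCA4 VM libraries (n = 3) and siSMARCA4 V libraries (n = 3), each against 4OHT siNT (n = 6, all VM), and V against VM within siSMARCA4; filled points have an adjusted p under 0.05. STING1 is at -1.68 in the VM set and -0.31 in the V set, while CGAS is above 0 in both.

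TBK1 (ENSG00000183735; chr12:64452090-64502114, plus strand) encodes the kinase that STING recruits. It was at 28.7, 30.2, 31.7, 28.1 and 26.8 CPM in DMSO siNT. In 4OHT siNT it ranged from 25.0 to 33.7 CPM (median 29.9) and in 4OHT siSMARCA4 from 34.5 to 43.6 CPM (median 37.3). Every siSMARCA4 library lay above every library of both other groups. TBK1 rose 1.31-fold with siSMARCA4 in 4OHT (29.5 ± 3.85 to 38.6 ± 3.89 CPM, both n = 6; log2 difference 0.39, SE 0.09, edgeR adjusted p 0.004) and was above DMSO siNT as well (29.1 ± 1.90 CPM, n = 5; 0.41, SE 0.09, edgeR adjusted p 0.00102). Senescence with siNT gave 0.02 (95% interval -0.16 to 0.20, edgeR adjusted p 0.886). The knockdown call held under all 22 alternatives, between 0.28 and 0.59. The promoter window of TBK1 is shown because it is the promoter, among those at hand, of a gene that rose with the knockdown. RefSeq windows of 250 bases before to 50 after the start of transcription (GRCh38.p14) were matched for 5 of the 8 genes, and 6 motifs were searched on both strands. These were GGGCGG, the GC box that SP factors bind, CCAAT, bound by the NF-Y complex, and CACGTG, the E-box of MYC and its relatives. The others were TGANTCA, the site of AP-1 factors such as JUN, then GAAANNGAAA, the interferon-stimulated response element, and TTCNNNGAA, which STAT dimers bind. Capitals mark matches in the sequence of chr12:64451870-64452169, plus strand:
TBK1: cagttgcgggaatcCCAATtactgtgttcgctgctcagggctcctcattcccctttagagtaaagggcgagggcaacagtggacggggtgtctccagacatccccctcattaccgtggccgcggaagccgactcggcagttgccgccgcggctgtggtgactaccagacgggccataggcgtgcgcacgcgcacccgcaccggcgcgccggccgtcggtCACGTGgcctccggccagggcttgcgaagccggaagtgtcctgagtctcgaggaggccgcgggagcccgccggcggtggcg
The window held an E-box that began 31 bases before the start, a motif found in 7.26% of all 35116 windows, and 1 CCAAT, found in 34.6%. The letters GAAANNGAAA, in 3.57% of all windows, were in none of the 6 windows of the matched genes.

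IRF3 (ENSG00000126456; chr19:49659569-49665875, minus strand) encodes the transcription factor that TBK1 activates. Its DMSO siNT libraries were at 41.4, 41.8, 52.7, 46.2 and 56.5 CPM. The 4OHT siNT range was 58.2 to 71.1 CPM (median 63.5). With siSMARCA4, 5 libraries lay between 59.4 and 72.6 CPM and 1, 4-3V, lay far below them at 34.1 CPM. IRF3 rose 1.33-fold in senescence without overlap (47.7 ± 6.69 to 63.6 ± 4.55 CPM, SD, n = 5 and 6; 0.42, SE 0.14, edgeR adjusted p 0.0175). The call was lost without DMSO siNT 2-1V (0.34, edgeR adjusted p 0.075), 2-2V (0.35, 0.075) or 4-2VM (0.39, 0.053), with suffix as a covariate (0.32, 0.0597) and with the number 4 libraries alone (0.26, 0.388). The knockdown gave -0.10 (95% interval -0.36 to 0.16, edgeR adjusted p 0.626), and without 4-3V the value was 0.01. Against DMSO siNT, siSMARCA4 gave 0.31 (edgeR adjusted p 0.0669) with all libraries and was called in 5 of 21 alternatives. These were the fits without siSMARCA4 4-3V (0.43, edgeR adjusted p 0.000605), without DMSO siNT 4-3VM (0.38, 0.035), with suffix as a covariate (0.34, 0.0341), in VM libraries (0.27, 0.0375) and in number 2 libraries (0.57, 0.00128). BCL2L12, on the opposite strand, shares 19.3% of the IRF3 exon bases.

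TREX1 (ENSG00000213689; chr3:48465811-48467645, plus strand) encodes the exonuclease that degrades cytosolic DNA. In GENCODE 44 its exon bases all lie within exons of ATRIP on the same strand, so reads may have been divided between these genes and the values of TREX1 are uncertain. It was at 3.59, 3.52, 3.52, 3.46 and 4.09 CPM in DMSO siNT, at 2.63 to 3.38 CPM (median 2.85) in 4OHT siNT and at 1.83 to 3.23 CPM (median 2.47) in 4OHT siSMARCA4. Every library with 4OHT lay below every DMSO library. Neither step alone was called: senescence gave -0.30 (SE 0.13, edgeR adjusted p 0.0666) and the knockdown -0.27 (SE 0.13, edgeR adjusted p 0.147). Senescence was called in 3 of 21 alternatives, by DESeq2 (-0.31, adjusted p 0.0405), in an edgeR fit of the groups compared alone (-0.30, adjusted p 0.0403) and by edgeR in the VM libraries (-0.35, adjusted p 0.0494). From DMSO siNT to siSMARCA4 in 4OHT, TREX1 fell 1.48-fold (3.64 ± 0.258 to 2.45 ± 0.484 CPM, SD, n = 5 and 6; -0.57, SE 0.13, edgeR adjusted p 0.00144). That call was lost with the number 4 libraries alone (-0.58, edgeR adjusted p 0.0842) and with the replicate tag as a block (-0.77, edgeR adjusted p 0.0541). The knockdown was called without siSMARCA4 4-3V (-0.36, edgeR adjusted p 0.0379).

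SAMHD1 (ENSG00000101347; chr20:36890229-36951893, minus strand) encodes a dNTP hydrolase that also limits the release of DNA from stalled replication forks. In DMSO siNT it was at 43.9 (2-1V), 38.4 (2-2V), 29.1 (2-2VM), 28.5 (4-2VM) and 23.1 CPM (4-3VM). The 4OHT siNT libraries were close together, between 32.1 and 36.9 CPM (median 35.3). With siSMARCA4 they were at 24.8, 24.3 and 21.9 CPM in VM and at 26.7, 33.6 and 33.4 CPM in V. In both groups that held V libraries, these lay above the VM libraries. Within DMSO siNT, 2 of the 8 genes, SAMHD1 and IRF3, did not overlap between the suffixes, against 31.4% of all genes. The V against VM difference was 0.61 (SE 0.12, edgeR adjusted p 0.0281) in DMSO siNT and 0.40 (SE 0.11, edgeR adjusted p 0.0522) in siSMARCA4. Over the whole groups no comparison was called: the knockdown gave -0.34 (SE 0.14, edgeR adjusted p 0.0744) and senescence 0.10 (SE 0.14, edgeR adjusted p 0.602). Against DMSO siNT, siSMARCA4 gave -0.25 (SE 0.14, edgeR adjusted p 0.152). The knockdown was called in 6 of 22 alternatives and each of the others in 3 of 21. With suffix as a covariate all 3 were called, at -0.61 (edgeR adjusted p 0.000146) for the knockdown, 0.33 (edgeR adjusted p 0.00575) for senescence and -0.28 (edgeR adjusted p 0.00802) against DMSO siNT. The replicate block called the knockdown (-0.57, edgeR adjusted p 0.015) and senescence (0.39, edgeR adjusted p 0.0239), the VM libraries alone called the knockdown (-0.54, edgeR adjusted p 0.000548) and senescence (0.35, edgeR adjusted p 0.00392), and the fit of the groups compared alone called the knockdown (-0.34, edgeR adjusted p 0.0217). Since each V tag occurs in a single library, the block fit rests on the VM libraries too. Against DMSO siNT the call was also gained in number 2 libraries (-0.55, edgeR adjusted p 0.00542) and without DMSO siNT 4-3VM (-0.35, edgeR adjusted p 0.0315). The knockdown was also called without siSMARCA4 4-2V (-0.41, edgeR adjusted p 0.0359) or 4-3V (-0.41, edgeR adjusted p 0.0401). TLDC2, on the opposite strand, shares 9.86% of the SAMHD1 exon bases.

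ENPP1 (ENSG00000197594; chr6:131808016-131895155, plus strand) encodes the ectoenzyme that breaks down cGAMP. It was at 17.2, 21.9, 19.3, 18.8 and 14.5 CPM in DMSO siNT, at 7.23 to 13.2 CPM (median 10.8) in 4OHT siNT and at 7.47 to 11.4 CPM (median 10.3) in 4OHT siSMARCA4. All 12 libraries with 4OHT lay below all 5 with DMSO. ENPP1 fell 1.72-fold in senescence (18.4 ± 2.73 to 10.7 ± 2.35 CPM, SD, n = 5 and 6; -0.78, SE 0.15, edgeR adjusted p 0.00018) and was below DMSO siNT with siSMARCA4 too (10.03 ± 1.44 CPM; -0.87 against DMSO, SE 0.15, edgeR adjusted p 5.74e-05). Between the 4OHT groups the difference was -0.09 (95% interval -0.37 to 0.19, edgeR adjusted p 0.711). The senescence call held under all 21 alternatives. Its promoter window is shown for its GC boxes, which the TBK1 window lacks, at chr6:131807770-131808069, plus strand, with motif matches in capitals:
ENPP1: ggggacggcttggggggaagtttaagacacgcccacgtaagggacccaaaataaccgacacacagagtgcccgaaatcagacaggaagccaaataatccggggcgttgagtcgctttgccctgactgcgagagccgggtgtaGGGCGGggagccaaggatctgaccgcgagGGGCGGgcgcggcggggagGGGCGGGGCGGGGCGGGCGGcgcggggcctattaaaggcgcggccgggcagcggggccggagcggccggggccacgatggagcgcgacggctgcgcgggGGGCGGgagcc
It held 7 GC boxes, some of which overlap by a base or more, where 44.95% of all windows held at least 1 and 1.50% held as many or more. These matches describe the letters of the windows and not binding.

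**Figure D3:**
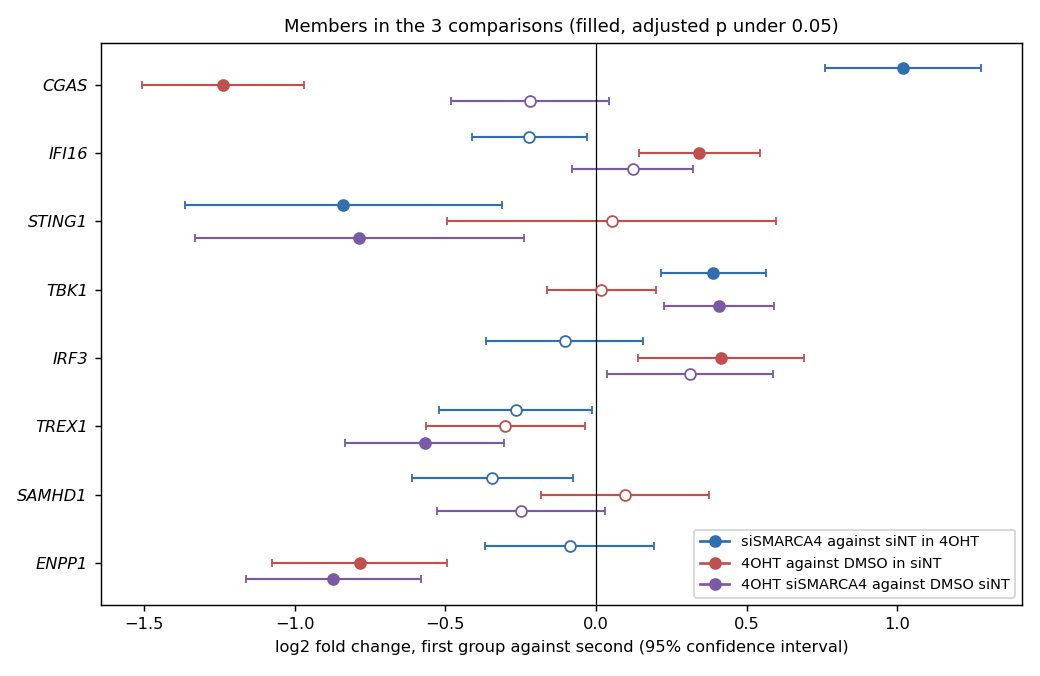
Log2 fold change of each gene with its 95% confidence interval in the 3 comparisons, first group against second; filled points have an edgeR adjusted p under 0.05. CGAS lies at -1.24 for senescence and at 1.02 for the knockdown. TBK1 and STING1 are called in the knockdown and not in senescence, where the interval of STING1 is wide. ENPP1 is called in senescence and not in the knockdown.

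The siRNA numbers were compared because each group held libraries of both. Number and suffix were not balanced: the V libraries were 2-3V, 4-2V and 4-3V with siSMARCA4, and 2-1V and 2-2V in DMSO siNT. Except among the 4OHT siNT libraries, which are all VM, differences between the numbers thus mix number with suffix. This holds also for fits of a single number set side by side. The size of the knockdown effect was called different between the numbers by edgeR for 0 of the 8 genes and for 1.06% of all genes. Before adjustment the difference passed 0.05 for 2 of the 8, TBK1 (0.31, edgeR p 0.0363) and ENPP1 (0.62, edgeR p 0.015), and for 15.5% of all genes, and only edgeR was used for it. For CGAS the number 2 libraries gave 1.18 (edgeR adjusted p 0.000213) and those of number 4 gave 0.83 (edgeR adjusted p 0.00459). STING1 gave -0.86 and -0.82 (edgeR adjusted p 0.0937 and 0.113). In this fit by number TBK1 was called with number 4 (0.55, edgeR adjusted p 0.002) and not with number 2 (0.24, edgeR adjusted p 0.088). IFI16 was called lower with number 2 in the same fit (-0.41, edgeR adjusted p 0.0366). The knockdown change of IFI16 was called in 0 of 22 alternatives, among them the fit of number 2 libraries alone. The siNT controls of both numbers were also compared in 4OHT, which was added after the values were seen. Number 2 libraries lay above number 4 libraries in TBK1 (32.9 ± 0.807 against 26.1 ± 1.37 CPM, SD, n = 3 each; -0.33, edgeR adjusted p 0.0581), in ENPP1 (12.6 ± 0.830 against 8.73 ± 1.37 CPM; -0.53, edgeR adjusted p 0.0682) and in IFI16 (-0.20, edgeR adjusted p 0.376), and below them in STING1 (23.3 ± 2.03 against 35.4 ± 9.01 CPM; 0.60, edgeR adjusted p 0.306). These 4 of 8 genes did not overlap between the numbers, against 36.7% of all genes, and 0 of 8 were called by edgeR, against 4.68%.

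The other genes of the pathway were taken from 7 lists by role, 80 genes in all, of which 70 had enough counts to be tested. In the knockdown 10 of the 70 rose and 8 fell, 25.7% against 24.2% of all genes, with a median of 0.00. The 18 calls became 3 with the number 4 libraries alone, where calls over all genes went from 4703 to 1198, and ran from 13 to 25 with 1 library left out. CXCL10, the chemokine induced downstream of IRF3 and NF-kB, rose most, to 38.7 ± 9.95 CPM where 4OHT siNT stood at 7.43 ± 0.832 (both n = 6; log2 difference 2.38, SE 0.31, edgeR adjusted p 5.34e-05, no overlap), and it had been at 0.443 ± 0.555 CPM in DMSO siNT. It was the only one of 6 tested interferon readout genes to be called in the knockdown. IFIT1, IFIT2, IFIT3, ISG15 and MX1, which interferons induce, gave -0.51, -0.10, 0.12, -0.14 and -0.92 (edgeR adjusted p 0.318, 0.796, 0.598, 0.523 and 0.108). IFNB1, the interferon gene itself, had 2 counts over the siSMARCA4 libraries, 1 over 4OHT siNT and 0 over DMSO siNT, so a change in it was not detectable at this depth. CCL5, OAS1, RSAD2, AIM2, ZBP1, DNASE1L3, ENPP3, SLC46A2 and NLRC3 were likewise too low to be tested.

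The counts of the single lists below stand beside 10.4% of all genes called higher and 13.8% lower. Among the genes of cGAMP transport, 3 of 8 tested rose with siSMARCA4 and none fell (37.5% called, against 24.2% of all genes). LRRC8E, a subunit of the volume-regulated channels that carry cGAMP, was at 12.5 ± 1.73 against 7.04 ± 0.467 CPM (log2 difference 0.83, SE 0.09, edgeR adjusted p 1.45e-05, no overlap), and SLC46A1, a folate and cGAMP carrier, at 8.66 ± 1.49 against 6.18 ± 1.10 CPM (log2 difference 0.49, SE 0.13, edgeR adjusted p 0.012). DNASE2, the lysosomal DNase, rose to 62.2 ± 16.4 CPM over 35.6 ± 1.73 (log2 difference 0.80, SE 0.13, edgeR adjusted p 0.000372) and was the 1 called gene of 6 tested in DNA and cGAMP removal. Of 16 genes of STING traffic and turnover, 2 rose and 4 fell (37.5% called). INSIG1, part of a ubiquitin ligase complex that acts on STING, rose (0.58, SE 0.18, edgeR adjusted p 0.0214), while USP20, a deubiquitinase, fell (-0.53, SE 0.08, edgeR adjusted p 0.000145), as did STIM1, which retains STING in the endoplasmic reticulum (-0.29, SE 0.08, edgeR adjusted p 0.0106). Of 14 kinase adaptors and transcription factors tested, 3 rose and 4 fell (7 of 14 called), among the latter IKBKE, a kinase related to TBK1 (38.8 ± 4.14 to 25.4 ± 5.02 CPM; -0.61, SE 0.12, edgeR adjusted p 0.00137), IKBKB (-0.29, SE 0.08, edgeR adjusted p 0.011) and the TBK1-binding adaptor TBKBP1 (-0.31, SE 0.11, edgeR adjusted p 0.0485), whose call was kept in 3 of 22 alternatives. The calls of IKBKB, INSIG1 and STIM1 were kept in 17, 19 and 20 of 22. That of INSIG1 was lost without siNT 4-1VM (0.53, edgeR adjusted p 0.0518) or siSMARCA4 4-2VM (0.41, edgeR adjusted p 0.0614). In the number 4 libraries alone the calls of DNASE2, SLC46A1, USP20 and IKBKE were lost too (edgeR adjusted p 0.114, 0.412, 0.0544 and 0.0599). Thus TBK1 and its relative IKBKE moved in opposite directions. None of 14 tested DNA sensors and cofactors was called by edgeR, with values from -0.37 to 0.29. None of 6 genes of cGAS restraint and modification was called either, with values from -0.09 to 0.09.

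In senescence with siNT, 20 of the 70 pathway genes rose and 19 fell, 55.7% against 54.4% of all genes, with a median of -0.04. Interferon readout genes diverged: CXCL10 rose (4.05, SE 0.41, edgeR adjusted p 1.24e-07, and 5.23 without DMSO siNT 2-1V), whereas IFIT1 (6.54 ± 2.98 to 0.656 ± 0.206 CPM; -3.31, SE 0.35, edgeR adjusted p 1.82e-07) and IFIT2 (9.48 ± 2.49 to 0.651 ± 0.206 CPM; -3.85, SE 0.24, edgeR adjusted p 1.21e-10) fell. HMGB2, a chromatin protein that binds DNA and is abundant in dividing cells, was down to 4.45 ± 0.930 CPM where DMSO siNT had 48.9 ± 9.17 (log2 fold change -3.46, SE 0.18, edgeR adjusted p 1.02e-11), alongside RNASEH2A, the catalytic subunit of RNase H2 (-1.98, SE 0.14, edgeR adjusted p 6.22e-10). Of the 6 genes of cGAS restraint and modification, 4 fell and none rose, where 27.4% of all genes were called lower and 27.0% higher. TRIM14, an adaptor that stabilises cGAS, had the most negative value of the 4 (18.02 ± 4.81 to 5.36 ± 1.91 CPM; -1.75, SE 0.24, edgeR adjusted p 5.36e-06), at -2.40 in number 2 and -1.14 in number 4 libraries alone. NPC1, the lysosomal cholesterol transporter that also takes part in STING turnover, rose most among genes of STING traffic (20.2 ± 7.81 to 107 ± 7.70 CPM; 2.41, SE 0.19, edgeR adjusted p 3.93e-09), followed by RHBDF2 (1.46, SE 0.28, edgeR adjusted p 0.000194), which gave 0.70 in number 2 and 2.14 in number 4 libraries alone. IKBKE (1.12, SE 0.13, edgeR adjusted p 5.45e-07) and TRAF3 (1.01, SE 0.08, edgeR adjusted p 6.71e-09), an adaptor of the kinases, rose as well. The proliferation gene MKI67 was at 21.2 to 73.7 CPM in DMSO siNT and at 0.654 to 1.28 CPM in 4OHT siNT, and the part of the stop in cell division in these differences was not tested.

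Genes of the senescent state also moved with the knockdown. Of 7 checked, 2 were called lower and 2 higher by edgeR with siSMARCA4, all 4 without overlap. Over all genes 13.8% were called lower and 10.4% higher, and 12.0% did not overlap. The cell cycle inhibitors CDKN1A (2011 ± 93.6 to 1502 ± 131 CPM; -0.42, SE 0.07, edgeR adjusted p 0.000448) and CDKN2B (352 ± 24.8 to 223 ± 12.7 CPM; -0.66, SE 0.09, edgeR adjusted p 6.35e-05) fell. The secreted factors rose: IL6 ran from 88.5 to 188 CPM with siSMARCA4 where 4OHT siNT had 39.9 to 79.96 (log2 difference 1.40, SE 0.23, edgeR adjusted p 0.000372). The chemokine CXCL8 lay between 2403 and 4531 CPM, over 1130 to 2137 in 4OHT siNT (log2 difference 1.09, SE 0.18, edgeR adjusted p 0.000388). MKI67 was at 0.734 to 2.05 CPM with siSMARCA4 and was not called (0.49, edgeR adjusted p 0.274), nor were CCNA2 (0.05, edgeR adjusted p 0.869) and LMNB1 (0.40, edgeR adjusted p 0.0958). Within siSMARCA4, CXCL8 was at 3153 to 4531 CPM in V and 2403 to 2904 CPM in VM libraries. MKI67 (0.734 to 1.07 CPM in V, 1.29 to 2.05 in VM) and CCNA2 (1.16 to 1.56 in V, 1.84 to 2.56 in VM) lay lower in V. The suffixes did not overlap for these genes, against 22.3% of all genes, but overlapped for IL6, CDKN1A, CDKN2B and LMNB1. The part of the shifts in these state genes in the values of CGAS, TBK1 and STING1 in the knockdown was not tested.

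**Figure D4:**
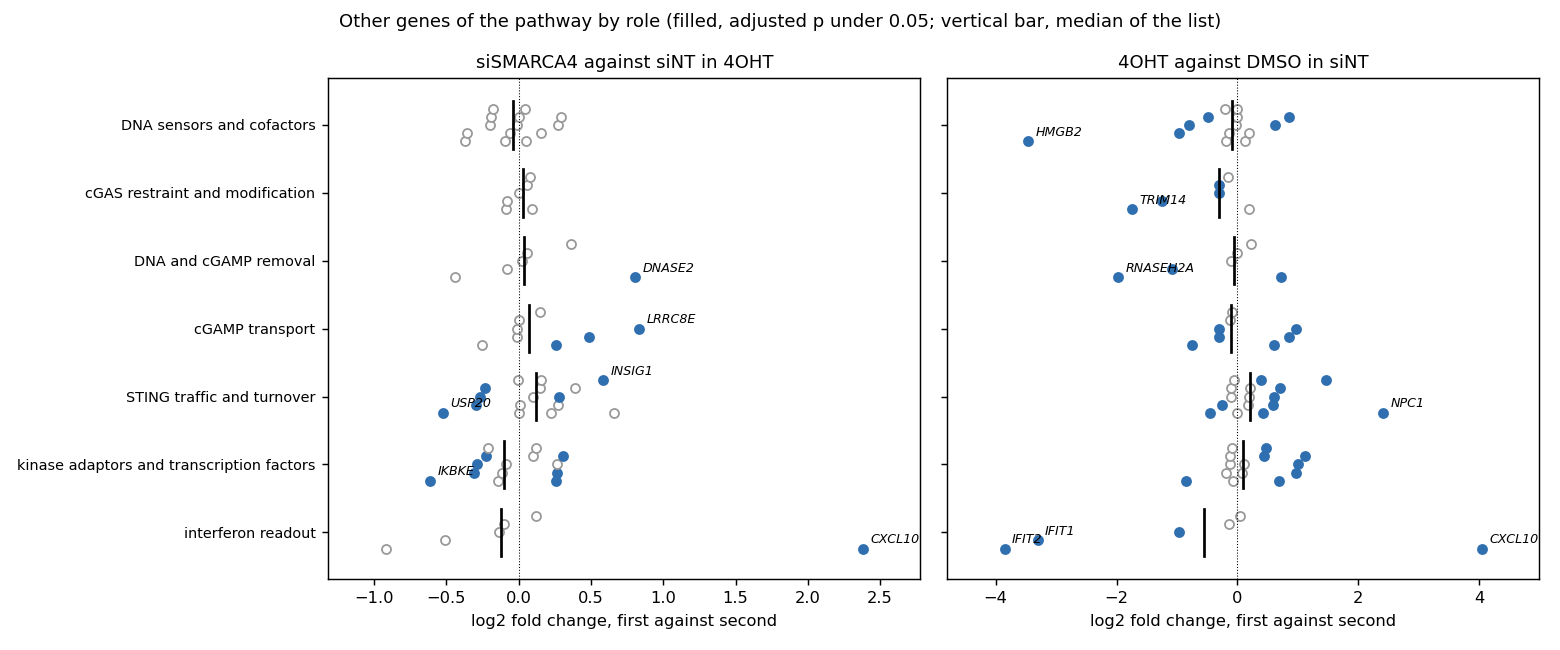
Log2 fold change of the 70 tested genes of the 7 pathway lists in the knockdown (left) and in senescence (right), 1 point per gene, filled where the edgeR adjusted p is under 0.05, with vertical bars at the list medians. CXCL10 lies far to the right in both panels. The lists of DNA sensors and cofactors and of cGAS restraint and modification hold no filled point in the knockdown.

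The genes whose pattern over all 17 libraries was most like that of CGAS were LDAF1, ALG13, SLC36A4, HTATIP2 and EMP1 (Pearson's r of log2 CPM 0.95, 0.95, 0.95, 0.93 and 0.93), out of 10571 genes with a symbol and a mean of at least 5 CPM. Like CGAS, each had its lowest group mean in 4OHT siNT, for instance 25.8 CPM for LDAF1 beside 45.3 in DMSO siNT and 41.4 in 4OHT siSMARCA4. For STING1 they were DNM1, PGM1, FHL3, NT5DC2 and FAAP100 (r 0.96, 0.96, 0.94, 0.93 and 0.93), each lowest in siSMARCA4, as with DNM1 at 29.1, 27.0 and 11.7 CPM. Among the 8 genes themselves, STING1 was most like TREX1 (r 0.79) and most unlike TBK1 (r -0.87), and CGAS was most unlike IFI16 (r -0.67). The genes like CGAS and STING1 were picked for likeness over these same libraries, so their shared group pattern follows from the choice. These values describe 17 libraries of 3 groups that share depth and suffix differences, and they say nothing of shared control.

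Repeat elements inside a gene's body were counted apart from the gene itself. Reads with several matches were divided by likelihood, so these counts may include reads from copies elsewhere and need not come from the gene's transcript. Some of the repeat loci inside the 8 genes lie in exons, and in TBK1 47 of 80 lie outside them. In all, 7 of the 8 held annotated repeat loci, from 6 in IRF3 to 193 in SAMHD1, and TREX1 held none. STING1 had 31 counts on 12 loci over all libraries and was not tested. Repeat loci took 1.39% to 1.52% of a library's counts in 4OHT siNT and 1.52% to 1.84% with siSMARCA4, and 1.35% to 1.93% in DMSO siNT. Repeats were not tested inside genes other than the 8, so these calls have no share over all genes beside them. In TBK1 the 80 loci together went from 0.773 ± 0.0678 to 1.53 ± 0.182 CPM of the library total with siSMARCA4 (SD, n = 6 each; ratio 1.98, exact 2-sided permutation p 0.00216, the smallest that 6 against 6 can give, adjusted over 6 genes 0.013), without overlap, and the call was kept with loci outside exons alone. DMSO siNT lay at 0.48 to 0.888 CPM in 4 libraries and at 1.57 CPM in 2-2V. Most of these counts lay on many loci, the largest share being 12.1% on an L2d element. SAMHD1 was higher as well (0.137 ± 0.0823 to 0.259 ± 0.0711 CPM; exact permutation p 0.0216, adjusted 0.0433), with overlap, and its call was lost in 10 of 14 alternatives. For CGAS, IFI16 and ENPP1 the exact permutation p was 0.948, 0.532 and 0.784.

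IRF3 repeat counts were called lower, at 1.36 ± 0.190 CPM in 4OHT siNT against 0.761 ± 0.245 CPM with siSMARCA4 (SD, n = 6 each; exact permutation p 0.00433, adjusted 0.013), where the DMSO level was 0.682 ± 0.163 CPM (n = 5). Library 2-3V of siSMARCA4, at 1.16 CPM, overlapped the lowest 4OHT siNT library at 1.08. Of these counts, 61.1% lay on 1 locus outside exons, an MER3 element at chr19:49661142-49661330 (GRCh38). Its sequence is printed because it held the largest share, with no letters marked. The letters are those of the plus strand of the genome, and the orientation of the element itself is not given. It held 35.4% of the fall, and 64.6% lay on other loci:
MER3: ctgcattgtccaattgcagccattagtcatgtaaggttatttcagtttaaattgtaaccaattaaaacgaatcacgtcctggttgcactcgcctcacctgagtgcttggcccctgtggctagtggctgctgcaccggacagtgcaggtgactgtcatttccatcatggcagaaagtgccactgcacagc
MER3 counts were 0.769 ± 0.136 CPM in 4OHT siNT, 0.556 ± 0.195 CPM with siSMARCA4 and 0.361 ± 0.0723 CPM in DMSO siNT. They ran from 0.608 to 0.990 CPM in 4OHT siNT and from 0.340 to 0.864 CPM with siSMARCA4, so these groups overlapped. The locus was chosen after its values were seen and was not tested singly. The gene's own exon counts, described above, gave no call in the same comparison. The tables do not give the strand of the reads on repeat loci, and at 27 to 57 counts per 4OHT siNT library on MER3 the values rest on few reads.

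**Figure D5:**
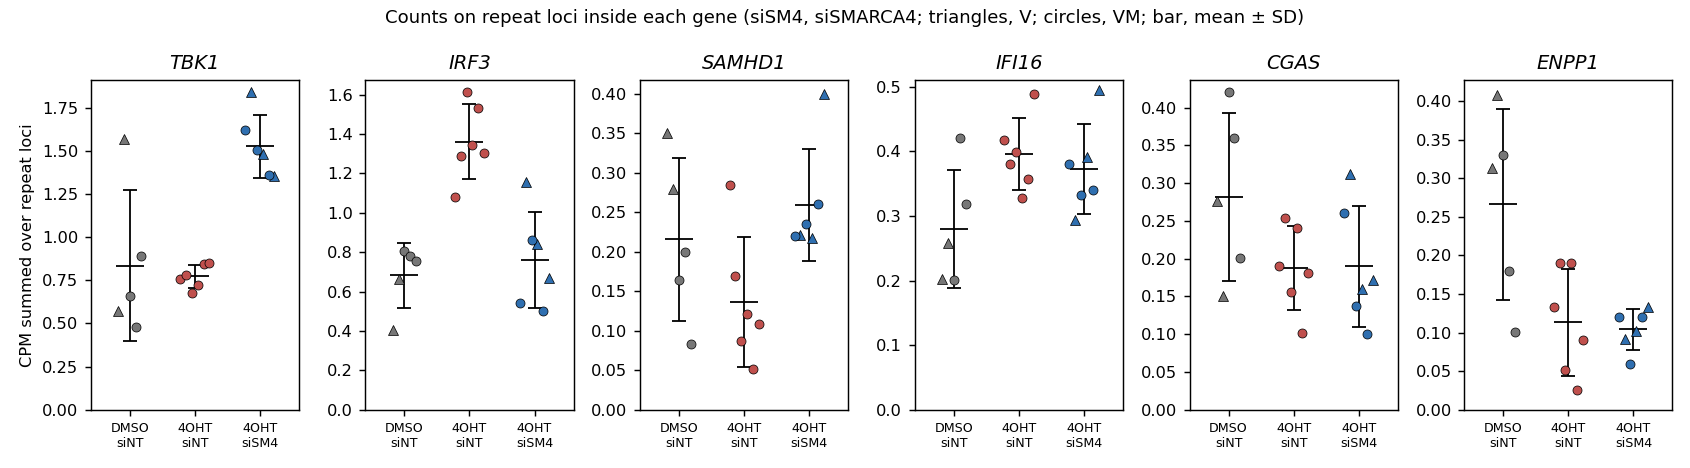
Counts on annotated repeat loci inside 6 of the genes, summed per gene and given per 1e6 counts of each library, in the 3 groups; triangles are V and circles VM libraries, and bars the mean ± SD. All 6 siSMARCA4 libraries lie above all 6 4OHT siNT libraries in TBK1, and IRF3 is highest in 4OHT siNT.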

How the data were processed

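IMR90 ER:RAS cells were sequenced in 17 libraries. The authors deposited, per library, expected counts of genes and repeat loci as whole numbers that were not normalised. Per the labels and the study's methods, the authors trimmed reads with Cutadapt 4.7, aligned them to GRCh38 with HISAT2 2.2.1 and counted with TElocal (reverse strand), dividing reads with several matches by likelihood, so genes that share sequence or exons can exchange counts. Positions, exon lengths and overlaps came from GENCODE 44, which holds 62700 of the 62754 gene IDs, and promoters from RefSeq. The study's methods name an Ensembl annotation instead, so exon lengths and overlaps may differ from those used in counting.

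Genes and repeat subfamilies were filtered together by filterByExpr (minimum count 10, minimum total 15), scaled by TMM and fitted with edgeR 4.0.16 (R 4.3.3) over all libraries with 1 term per group. Quasi-likelihood tests were adjusted by Benjamini-Hochberg over genes, with calls at 0.05. The script was tested on simulated counts. Repeat loci inside genes with at least 60 counts were compared by exact permutation of CPM of library totals. This minimum was set after the counts were seen. DESeq2 1.42.0 was an alternative. Intervals cover the model's error. Fits by suffix and by siNT number were added after the values were seen. The 8 genes and the pathway lists were chosen with earlier results of these data known. Named genes were the 8 genes, SMARCA4, SMARCA2, listed markers, the 5 largest called rises and falls of the pathway lists per comparison, any listed gene too low to test, and the 5 genes most like CGAS and STING1. Another repeat locus inside IRF3 is not reported here.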

Additional observations from a re-analysis of the deposited data

Results flagged for a closer look

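Each of the 8 genes, SMARCA4 and SMARCA2 were checked in each group for a library far from the others by Dixon's test at 95%, which chance alone passes in about 1 of 20 groups. Of 30 groups, 3 had such a library. IRF3 was at 34.1 CPM in siSMARCA4 4-3V, with the other 5 libraries between 59.4 and 72.6 CPM. TREX1 was at 4.09 CPM in DMSO siNT 4-3VM, with the others between 3.46 and 3.59 CPM. SMARCA2 was at 30.02 CPM in the same DMSO library, with the others between 42.9 and 46.6 CPM. That library, 4-3VM, also held the highest DMSO siNT value of CGAS (7.28 CPM) and IRF3 (56.5 CPM). It held the lowest of TBK1 (26.8 CPM), SAMHD1 (23.1 CPM) and ENPP1 (14.5 CPM), while IFI16 and STING1 lay within the range of the others. The report gives the IRF3 results with and without siSMARCA4 4-3V. The causes were not tested.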

How the results depend on the processing

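Over single genes and repeat sets, 958 of 1080 alternative fits kept their direction and side of the threshold, 61 lost a call, 22 gained one and 39 reversed. Fold changes here are on the log2 scale, and causes were not tested. In the knockdown, 5 of the 8 genes were called with VM libraries only, beside 5303 of 19678 genes tested. With 1 library left out 2 to 5 of the 8 were called, beside 3717 to 5352 of all genes. The 5 were reached without siSMARCA4 4-3V, where 4894 of 19414 genes were called. Pathway calls numbered 18, 3 in a fit of number 4 libraries only, and ran from 13 to 25 with 1 library left out. With number 4 libraries only, 2 of the 8 were called in senescence and 2 against DMSO siNT, beside 8555 and 7615 of 19909 genes tested. With 1 library left out these were 3 to 4 and 3 to 6 of the 8, beside 9978 to 10917 and 10037 to 11050 of all genes. Over all genes, knockdown calls were 4703, 1198 with number 4 libraries only and 3043 with the replicate block.

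The values that reversed were near 0 in most cases. IRF3 in the knockdown was 0.017 with suffix as a covariate, 0.0031 in VM libraries, 0.11 in number 2 libraries, 0.047 with the block and -0.17 to 0.014 with 1 library left out. ENPP1 in the knockdown was 0.0081 in VM and 0.28 in number 4 libraries, and IFI16 was 0.0081 in number 4 libraries. In senescence TBK1 was -0.011 without the filter, -0.030 with suffix as a covariate, -0.12 in number 4 libraries and -0.046 to 0.063 with 1 library left out. STING1 in senescence was -0.37 in number 2 libraries and -0.12 to 0.11 with 1 left out, and SAMHD1 was -0.14 and -0.0061 to 0.20. Against DMSO siNT, CGAS was 0.022 in number 2 libraries, and in number 4 libraries IRF3 was -0.0025 and SAMHD1 0.19. The difference between siRNA numbers for STING1 was -0.29 to 0.49 with 1 library left out. Repeats inside CGAS differed by -0.0026 CPM with TMM scaling, -0.026 outside exons and -0.022 to 0.021 with 1 left out, and inside ENPP1 by 0.012 outside exons and -0.027 to 0.0062.

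Libraries with the same tag had correlations of deviations of -0.10 to 0.30 between 4OHT groups and -0.45 to 0.21 between siNT groups. These values do not tell whether such libraries shared a culture or a batch. With the replicate block, 4 of the 8 genes were called in the knockdown, 5 in senescence and 3 against DMSO siNT, beside 3043, 7929 and 6330 of 19473 genes. In the knockdown SMARCA4 was at -1.89, STING1 at -1.60 and SAMHD1 at -0.57, and 16 pathway genes were called. Each V tag occurs in a single library, so the block fit rests on VM libraries and is not separate from the VM fits. CGAS, TREX1 and the repeats inside genes rest on few counts. Apart from the split by suffix described for STING1, no correlation of the genes with SMARCA4 level within siSMARCA4 was given, since its libraries form V and VM clusters of 3.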
